A study of Mus musculus with 9 samples.

Results

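The genes described here build, bind and move actin filaments. They are the rows of the deposited count table whose symbols name cytoplasmic actins, alpha-actinins, actin-related proteins, Arp2/3 subunits, tropomyosins, myosin chains, filamins, calponins, transgelins, plastins, fascin, vinculin, zyxin, ezrin, radixin and moesin, with Myo5a left out. The choice rests on symbols, not on measured values. It gave 54 of the 11046 genes in the table, and all 54 passed the filter on low counts that left 11037 genes for testing. Actin, transgelin, calponin and myosin genes typical of muscle, and other genes with such symbols that are not among these 54, were not analysed here.

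Cultured cells of 3 untreated mouse tumour lines were sequenced as stranded libraries of polyadenylated RNA. The labels give 482N1 as lung NSCLC (non-small-cell lung cancer), B16F10-BrM as melanoma with mutant BRAF, and E0771-BrM as breast cancer of the triple-negative kind, each with genotype WT, where BrM means brain metastatic. A line has 3 libraries, lettered A to C. Nothing in the labels ties them to separate cultures, so the spread between them and the p-values that rest on it may be technical. The medium was DMEM for the lung and melanoma lines and RPMI 1640 with HEPES for the breast line, and a difference of E0771-BrM from another line cannot be told apart from one of medium. No gene was perturbed and no line served as a non-tumour control, so each comparison sets 1 line against another.

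Total counts were 7332390 to 9293348 per library. Libraries of the same line differed by more than sampling noise (chi-square per degree of freedom 3.92 to 7.56), and none was counted as a repeat deposit. Melanocyte markers, 5 of 12 measured, summed to 24600 to 25500 CPM (counts scaled to library size) in B16F10-BrM, 103 to 162 CPM in E0771-BrM and 2.77 to 28.1 CPM in 482N1. Dct, an enzyme of melanin synthesis, stood at 18.3, 1.68 and 18.8 CPM in libraries A, B and C of 482N1 and at 44.8, 3.48 and 32.8 CPM in those of E0771-BrM, so library B stood apart from A and C in both lines. The highest of these values was 0.26% of the mean in B16F10-BrM. With only library B of those 2 lines, fewer of the 54 genes passed the test in both comparisons of E0771-BrM. Fewer genes of the whole table passed then in every comparison, so the loss was not particular to the 54 genes. Log2 fold changes among the 54 genes changed sign for Arpc4 and Tpm1 in B16F10-BrM against 482N1 and for Myo1c in E0771-BrM against 482N1. Between E0771-BrM and B16F10-BrM they did so for Myl12a and Myl12b. None of these differences had passed with all libraries. Simple epithelial markers, 3 of 12 measured, summed to 7290 to 7910 CPM in 482N1, 216 to 250 CPM in E0771-BrM and 0 to 0.233 CPM in B16F10-BrM, where Krt18 was at 0. Of these, Krt8 and Krt18 were highest in 482N1 and Pkp3 in E0771-BrM. Below, levels are CPM as the mean ± SD of 3 libraries unless the 3 values are given, and log2 fold changes are model estimates ± SE.

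Actin monomers join into filaments that a cell builds, branches, bundles and pulls on. The Arp2/3 complex starts new branches on existing filaments, tropomyosins coat filaments and govern which other proteins reach them, and myosin II slides filaments past each other to make force. Crosslinkers such as filamins, alpha-actinins, plastins and fascin set the spacing of filaments, while ERM proteins (ezrin, radixin and moesin) tie them to the plasma membrane, and vinculin and zyxin act where they meet cell adhesions. In tumour cells this machinery is known for its roles in shape, migration and invasion.

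B16F10-BrM held the lowest levels of much of this machinery. Between B16F10-BrM and 482N1, 48 of the 54 genes passed the test (quasi-likelihood test of edgeR, p under 0.05 after Benjamini-Hochberg adjustment), against 77.8% of all genes tested. Of these, 37 were lower and 11 higher in B16F10-BrM, where 39.9% of all genes were lower and 38% higher. Between E0771-BrM and 482N1, 49 genes passed, against 78.1% of all genes, with 20 higher (37.7% of all genes) and 29 lower (40.4%) in E0771-BrM. Between E0771-BrM and B16F10-BrM, 46 genes passed, against 73.7% of all genes, with 31 higher (37.2%) and 15 lower (36.5%) in E0771-BrM. Passing the test was thus common in the whole table, and somewhat more so among the 54 genes, at 88.9%, 90.7% and 85.2%. The split by direction stood away from the table in both comparisons with B16F10-BrM. There 68.5% of the 54 genes were lower and 20.4% higher than in 482N1, and 57.4% were higher and 27.8% lower in E0771-BrM. In E0771-BrM against 482N1 the share higher (37%) was near that of all genes, and 53.7% were lower. The median log2 fold changes of the 54 genes were -0.60, -0.28 and 0.39 in these 3 comparisons, and those of all genes tested were -0.04, -0.04 and 0.02. The 3 comparisons share their libraries and are not independent. In RNA from whole cultures, fewer cells with a transcript and less of it per cell cannot be told apart.

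Lowest place, with both pairwise tests passed, fell to B16F10-BrM for 27 genes (22.5% of all genes tested), to E0771-BrM for 13 (21.1%) and to 482N1 for 5 (24.2%). Those 5 were Actr10, Actr6, Arpc3, Arpc5l and Myo19, and the call of Actr6 against B16F10-BrM (adjusted p = 0.0401) was lost with DESeq2 and without library B or C of 482N1 or any 1 library of B16F10-BrM (range over the alternatives 0.00484 to 0.179). Its call against E0771-BrM (adjusted p = 0.0142) was lost without library B (0.0686) or C (0.084) of 482N1, and where library B alone stood for these lines (0.0718). Highest place fell to 482N1 for 22 genes (26.3% of all genes), to E0771-BrM for 16 (20.7%) and to B16F10-BrM for 7 (21%). Libraries of the lines compared did not overlap for 47, 47 and 46 of the 54 genes, against 78.7%, 78.5% and 75.5% of all genes. Arpc1a was the 1 gene that passed in no comparison (6.12% of all genes), and 38 passed in all 3 (47.4% of all genes). A difference of at least 2-fold that also passed the test was found for 22, 22 and 25 genes, where the shares of all genes were 40.8%, 39.7% and 35%. The highest line exceeded the lowest by a median of 2.51-fold in mean CPM. In 18 genes the lines lay within 2-fold of each other, in 27 they spread over 2-fold to 8-fold, and in 9 the spread was wider or 1 line held no counts.

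**Figure D1:**
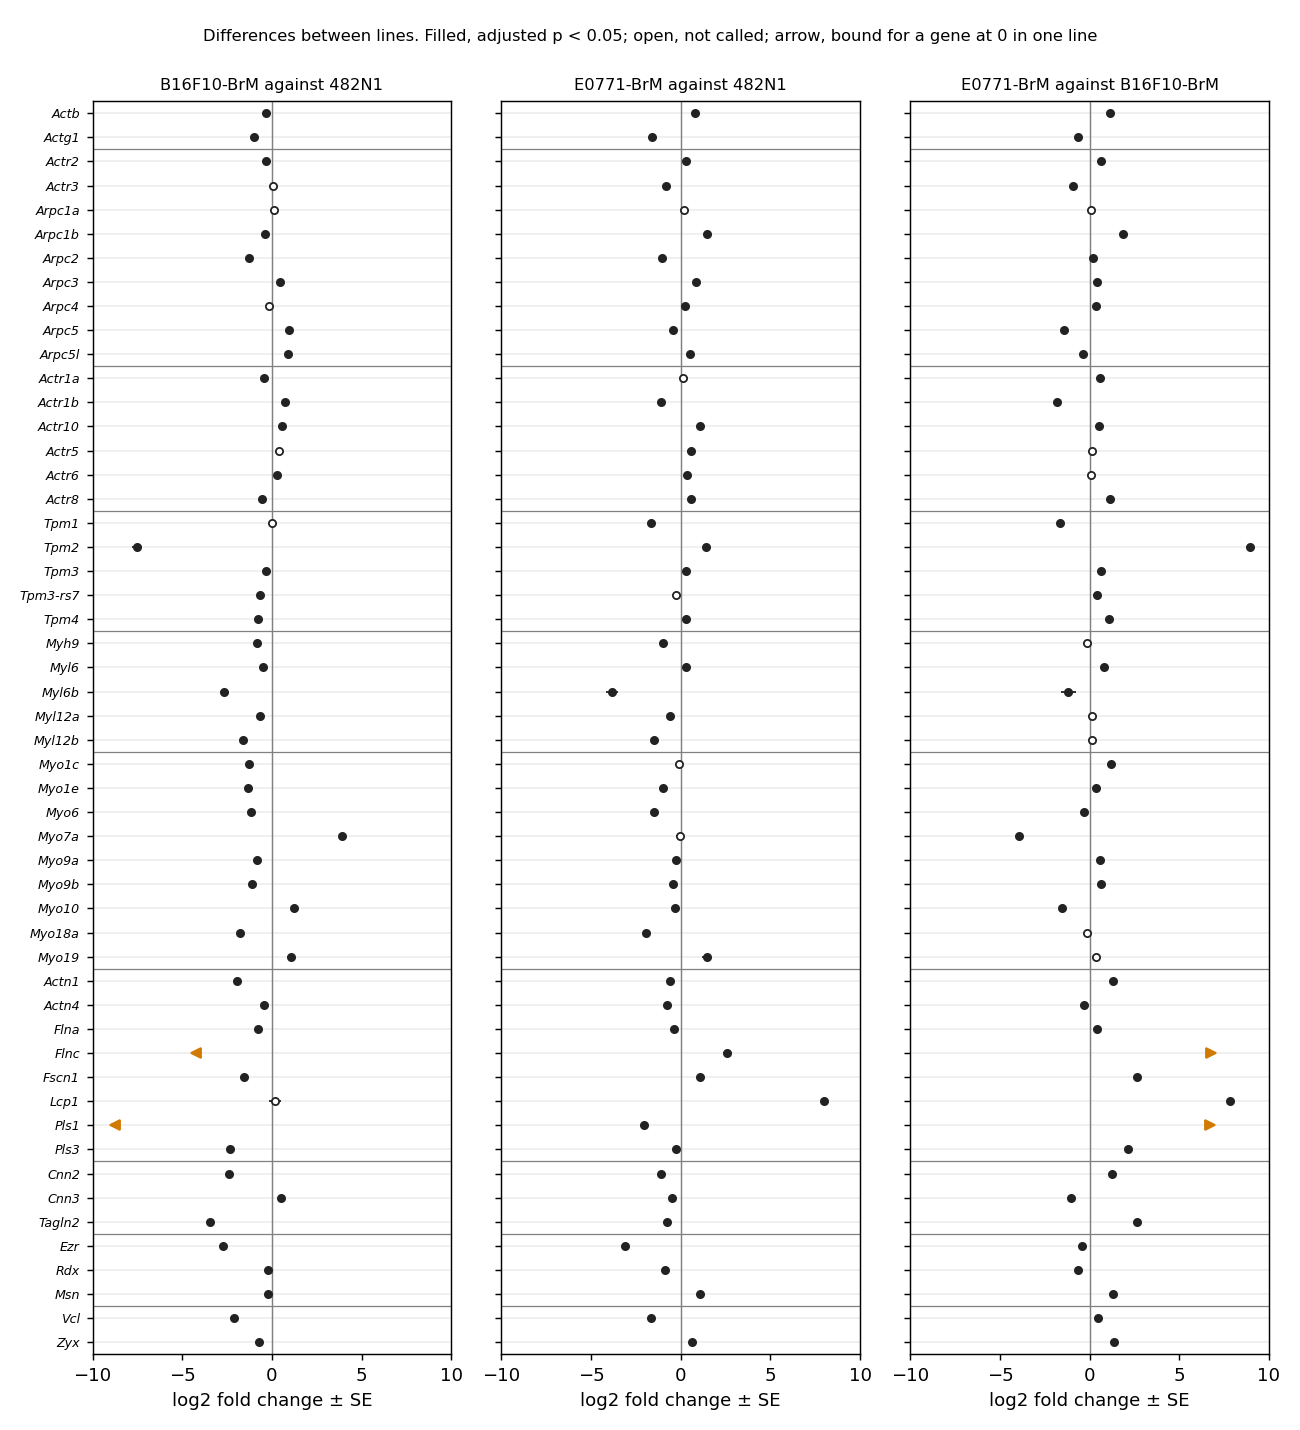
Log2 fold change (x axis, ± SE) of single genes among the 54 (y axis, grouped by role) in the 3 pairwise comparisons of lines. Filled points passed the edgeR test at adjusted p under 0.05, open points did not, and arrows mark the bound for Flnc and Pls1, which had no counts in B16F10-BrM. Tpm2 lies at -7.53 in the first panel and 8.95 in the third, and Lcp1 at 8.001 in the second and 7.81 in the third.

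B16F10-BrM had less of both non-muscle actins than 482N1, and in E0771-BrM they parted, with Actb higher and Actg1 lower than in either other line. They encode nearly the same protein, beta-actin from Actb and gamma-actin from Actg1, and their coding sequences are 88.6% identical over 1125 aligned bases. The first 60 coding bases of each, from GENCODE transcripts, are shown because the near-identity bears on which reads can be told apart, and capitals mark the 9 bases that differ:
Actb: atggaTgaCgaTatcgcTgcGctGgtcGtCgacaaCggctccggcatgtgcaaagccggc
Actg1: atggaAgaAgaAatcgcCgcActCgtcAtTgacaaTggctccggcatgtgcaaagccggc

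Actb, in the order of libraries A, B and C used throughout, had 8050, 7850 and 7410 CPM in 482N1, 6550, 6240 and 5660 CPM in B16F10-BrM, and 13400, 13900 and 12800 CPM in E0771-BrM. It was highest in every E0771-BrM library and lowest in every B16F10-BrM library, and no lines overlapped. The log2 fold change was -0.34 ± 0.07 for B16F10-BrM against 482N1 (adjusted p = 1.43e-05), 0.78 ± 0.07 for E0771-BrM against 482N1 (1.09e-14) and 1.12 ± 0.07 for E0771-BrM against B16F10-BrM (4.21e-20). Actg1 had 2680, 2320 and 2550 CPM in 482N1, 1220, 1240 and 1380 CPM in B16F10-BrM, and 800, 835 and 810 CPM in E0771-BrM. Here 482N1 stood highest and E0771-BrM lowest, again without overlap, with log2 fold changes of -0.98 ± 0.07, -1.63 ± 0.07 and -0.65 ± 0.07 in the same order (adjusted p = 9.67e-18, 7.11e-26 and 1.09e-11). Within a library, counts of Actb exceeded those of Actg1 by 3.09-fold in 482N1, 4.81-fold in B16F10-BrM and 16.4-fold in E0771-BrM (geometric means of 3 libraries). The log2 ratio was 1.63 ± 0.12, 2.27 ± 0.20 and 4.04 ± 0.04 (SD, n = 3), and each pair of lines was fully separated (exact permutation test, 2-sided, p = 0.1, the smallest that 3 against 3 libraries allow). Per kilobase of transcript, Actb stood at 4050 ± 170.0, 3200 ± 236 and 6960 ± 269 CPM per kb in 482N1, B16F10-BrM and E0771-BrM, above every other gene of the 54. Actb alone took 0.656 to 0.725% of all counts in 482N1, 0.595 to 0.692% in B16F10-BrM and 1.35 to 1.46% in E0771-BrM, and all 54 genes together 2.02 to 2.15%, 1.60 to 1.72% and 2.77 to 2.90%. In Actg1, 56.7% of the 50-base windows of the transcript also occur in transcripts of other genes, with 51.1% found in the predicted gene Gm12715, and in Actb 14.2% do. Values of Actg1 are therefore uncertain to the extent that such reads were assigned elsewhere.

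**Figure D2:**
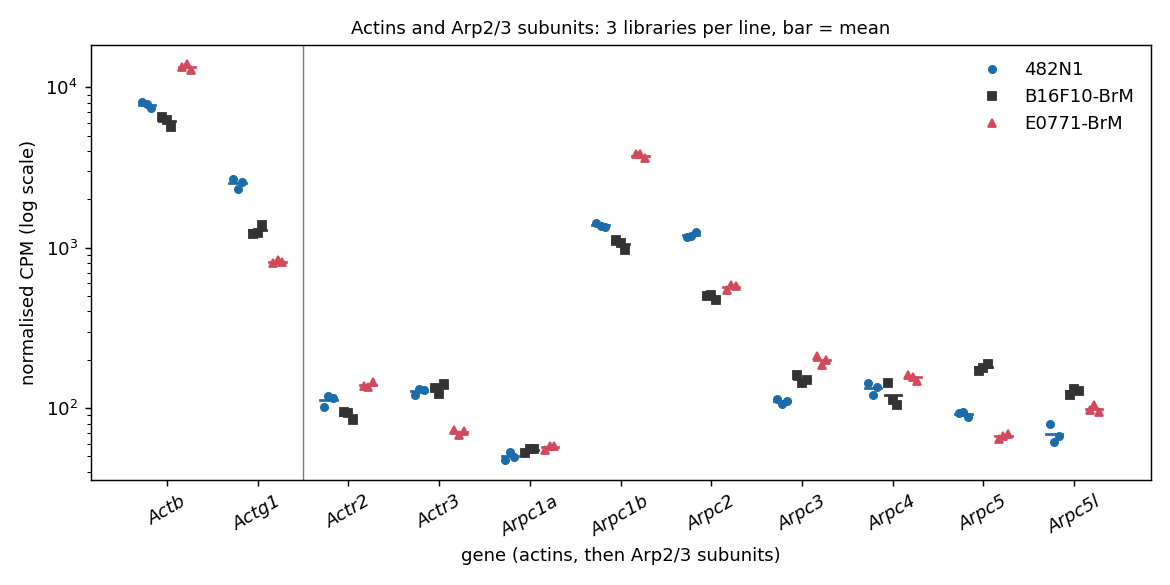
Normalised CPM on a log axis (y) of the 2 actins and the 9 Arp2/3 subunits (x), 1 point per library and a bar at the mean of each line. Actb lies at 12800 to 13900 CPM in E0771-BrM, above both other lines, while Actg1 is lowest there at 800 to 835 CPM, and Arpc1b and Arpc2 stand above the other subunits.

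The 9 measured genes of the Arp2/3 complex went in both directions, as the genes of the whole table did. In B16F10-BrM against 482N1, 3 were higher, 3 lower and 3 did not pass the test (38% higher and 39.9% lower among all genes). In each comparison of E0771-BrM 5 were higher, 3 lower and 1 did not pass. Among all genes, 37.7% were higher and 40.4% lower there against 482N1, and 37.2% and 36.5% against B16F10-BrM. Their summed level was 3270 ± 32.7 CPM in 482N1, 2400 ± 102 CPM in B16F10-BrM and 5110 ± 129 CPM in E0771-BrM (SD, n = 3), and most of it came from Arpc1b and Arpc2. Arpc1b, 1 of 2 alternative WD-repeat subunits, had 1430, 1370 and 1340 CPM in 482N1, 1120, 1070 and 965 CPM in B16F10-BrM, and 3830, 3830 and 3600 CPM in E0771-BrM. All E0771-BrM libraries lay above all others, with log2 fold changes of 1.45 ± 0.07 over 482N1 and 1.84 ± 0.07 over B16F10-BrM (adjusted p = 2.75e-24 and 2.77e-28). Its partner Arpc1a stayed close across lines at 50.2 ± 2.76, 54.5 ± 1.73 and 57 ± 1.72 CPM, and the differences did not pass the test (adjusted p = 0.251, 0.0707 and 0.522). The 2 genes are neighbours on chromosome 5 with no coding gene between them in the RefSeq annotation of GRCm38.p6, and their coding sequences are 71.9% identical. The count ratio of Arpc1b to Arpc1a was 65.8 in E0771-BrM, 27.5 in 482N1 and 19.3 in B16F10-BrM.

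Arpc2, which with ARPC4 forms the core that holds the complex on the mother filament, had 1170, 1180 and 1250 CPM in 482N1, 497, 506 and 473 CPM in B16F10-BrM, and 547, 589 and 575 CPM in E0771-BrM. All 482N1 libraries lay above both other lines, with log2 fold changes of -1.29 ± 0.07 in B16F10-BrM and -1.07 ± 0.07 in E0771-BrM (adjusted p = 1.28e-22 and 1.34e-19). The 2 actin-related subunits parted: Actr2 was higher in E0771-BrM than in 482N1 by 0.31 ± 0.08 on the log2 scale (adjusted p = 0.000522), while Actr3 was lower, with a log2 fold change of -0.83 ± 0.08 (9.69e-13). The Actr2 call was lost with only library B of each line (log2 fold change 0.19, adjusted p = 0.213; range over the alternatives 0.000294 to 0.213). In Actr3, 49.8% of the transcript's 50-base windows recur in other genes, nearly all in the predicted gene Gm8822. Arpc5 and Arpc5l, alternative versions of the smallest subunit, were both highest in B16F10-BrM, at 179 ± 9.49 and 127 ± 5.81 CPM. In E0771-BrM Arpc5 was the lower of the 2, with 67 ± 2.33 CPM against 98.9 ± 5.63 for Arpc5l, and the log2 ratio of Arpc5 to Arpc5l was -0.56 ± 0.11 there, 0.42 ± 0.20 in 482N1 and 0.50 ± 0.07 in B16F10-BrM. E0771-BrM did not overlap either other line in this ratio (exact permutation p = 0.1, the smallest possible), and the other 2 lines overlapped (p = 0.6). Arpc3 was lowest in 482N1 and highest in E0771-BrM, at 110.4 ± 3.88, 151 ± 8.11 and 198 ± 12.9 CPM in 482N1, B16F10-BrM and E0771-BrM, and passed in every comparison. Arpc4 had 133 ± 12.1, 119.9 ± 20.3 and 156 ± 6.64 CPM, and its call in E0771-BrM against 482N1 (adjusted p = 0.022) was lost without library B of 482N1 (0.129), library A of E0771-BrM (0.0739) or library B of E0771-BrM (0.0557).

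Other actin-related proteins serve dynactin, a cofactor of the dynein motor (Actr1a, Actr1b, Actr10), and chromatin remodelling complexes (Actr5, Actr6, Actr8). Between the 2 genes of the dynactin filament, Actr1b differed most: it had 73, 72.3 and 64.5 CPM in 482N1, 116, 124 and 108 CPM in B16F10-BrM, and 32.9, 30.6 and 34.8 CPM in E0771-BrM, with B16F10-BrM above and E0771-BrM below 482N1 in every library (log2 fold change between E0771-BrM and B16F10-BrM -1.82 ± 0.09, adjusted p = 7.80e-23). Actr1a, whose coding sequence is 78.6% identical to that of Actr1b, had 78.7 ± 3.39, 58.9 ± 0.965 and 86.3 ± 8.1 CPM and was lowest in B16F10-BrM. The 3 chromatin members stayed between 7.25 ± 2.09 CPM (Actr5 in 482N1) and 53.3 ± 1.29 CPM (Actr8 in E0771-BrM).

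**Figure D3:**
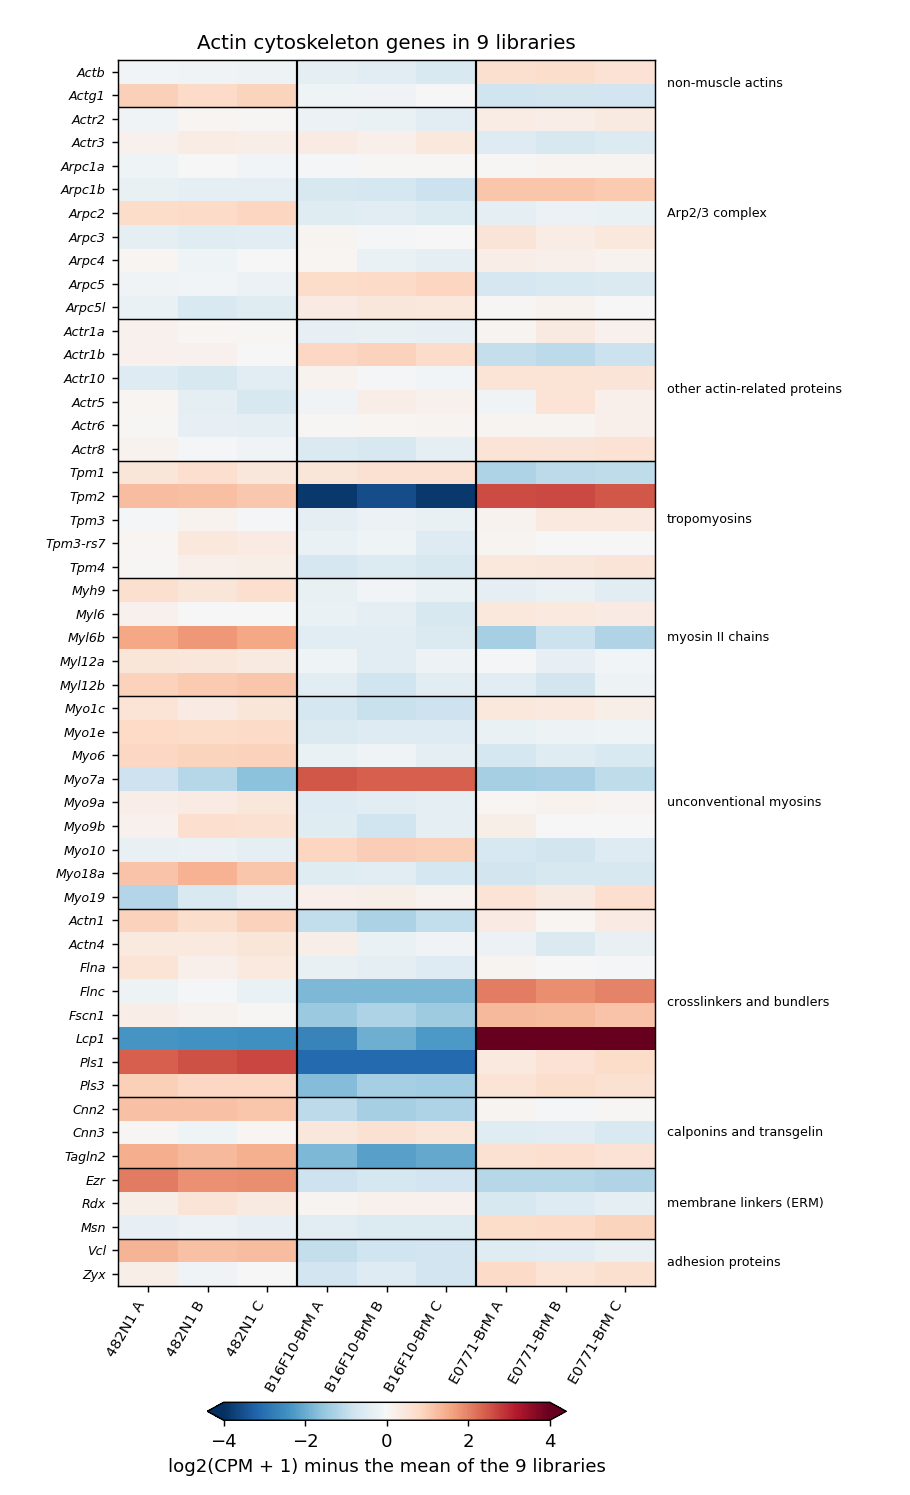
Log2(CPM + 1) of single genes among the 54 (rows, grouped by role) in the 9 libraries (columns), minus the mean of the 9 libraries, so red is above and blue below a gene's own mean, with the scale ending at 4. The 3 libraries of a line share their colours in most rows; Lcp1 is dark red in E0771-BrM alone, Tpm2 and Pls1 dark blue in B16F10-BrM, and Myo7a red in B16F10-BrM.

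Among the tropomyosins, Tpm2 had the widest gap between lines. Tpm2, the beta-tropomyosin gene, had 37, 35.9 and 33.1 CPM in 482N1, 0.104, 0.376 and 0.117 CPM in B16F10-BrM, and 96.4, 99 and 88 CPM in E0771-BrM. The 3 B16F10-BrM libraries held 1, 3 and 1 reads, 5 in all, against 846 in 482N1 and 2291 in E0771-BrM. After scaling these are 185-fold and 494-fold higher than B16F10-BrM, and the log2 fold changes were -7.53 ± 0.26 for B16F10-BrM against 482N1 and 8.95 ± 0.22 for E0771-BrM against B16F10-BrM (adjusted p = 3.70e-30 and 1.53e-35). Tpm1, the alpha-tropomyosin gene, differed in another way: it had 965, 1090 and 945 CPM in 482N1, 969, 1040 and 1040 CPM in B16F10-BrM, and 292, 333 and 338 CPM in E0771-BrM. E0771-BrM stood below both other lines in every library (-1.64 ± 0.07 and -1.66 ± 0.07 on the log2 scale, adjusted p = 2.67e-25 and 1.64e-25), whereas 482N1 and B16F10-BrM overlapped (log2 fold change 0.02 ± 0.07, 0.764).

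Tpm3 and Tpm4 shared 1 order, with E0771-BrM highest and B16F10-BrM lowest. Tpm4 had 350.3 ± 22.5, 203 ± 8.65 and 435 ± 11.2 CPM in 482N1, B16F10-BrM and E0771-BrM, and Tpm3 had 790.2 ± 71.4, 635 ± 37.1 and 975 ± 95.1 CPM. Both passed in all comparisons, but the libraries of 482N1 and E0771-BrM overlapped for Tpm3, and that call was lost with only library B of each line (adjusted p = 0.0759; range over the alternatives 1.64e-05 to 0.0759). The summed tropomyosin level in 482N1, B16F10-BrM and E0771-BrM was 2190 ± 160, 1860 ± 84.9 and 1840 ± 128 CPM (SD, n = 3). In CPM per kb, Tpm1 led in 482N1 (527 ± 42.1) and B16F10-BrM (536 ± 22.2), while in E0771-BrM the order was Tpm3 (437 ± 42.6), Tpm4 (204 ± 5.25), Tpm1 (169 ± 13.5) and Tpm2 (45 ± 2.73). The count ratio of Tpm4 to Tpm1 was 0.35, 0.199 and 1.36 in 482N1, B16F10-BrM and E0771-BrM. Tpm3 shares 62.4% of its transcript windows with Tpm3-rs7, a related sequence listed at 8.19 to 12.9 CPM on average, so the split between these 2 rows is uncertain. The call of Tpm3-rs7 between E0771-BrM and B16F10-BrM (adjusted p = 0.048) was lost with the library letter as a block (0.0518), with DESeq2 (0.0697), with ribosomal RNA genes removed (0.0535), with only the 2 lines compared (0.0503), where library B alone stood for 482N1 and E0771-BrM (0.195), and without library A or C of B16F10-BrM or any 1 library of E0771-BrM (range over the alternatives 0.0411 to 0.195).

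All 5 genes for non-muscle myosin II chains passed the test as lower in B16F10-BrM than in 482N1, as did 39.9% of all genes. In E0771-BrM 4 were lower and Myl6 was higher than in 482N1 (40.4% and 37.7% of all genes). Myh9, the heavy chain of non-muscle myosin IIA, had 540, 479 and 553 CPM in 482N1, 280, 318 and 286 CPM in B16F10-BrM, and 264, 285 and 251 CPM in E0771-BrM. It was highest in every 482N1 library, with log2 fold changes of -0.83 ± 0.07 and -0.97 ± 0.07 in B16F10-BrM and E0771-BrM (adjusted p = 2.56e-14 and 1.55e-16), and the latter 2 lines overlapped. Myl12a and Myl12b, neighbouring genes on chromosome 17 for the regulatory light chain, had 310.0 ± 13.4 and 77.9 ± 4.99 CPM in 482N1, 192 ± 16.8 and 25.2 ± 3.34 in B16F10-BrM and 208 ± 21.4 and 27.7 ± 5.25 in E0771-BrM. The log2 fold changes of Myl12b were the larger in size in both lines, with values against 482N1 of -1.63 ± 0.12 and -1.50 ± 0.12 for Myl12b and -0.69 ± 0.08 and -0.58 ± 0.08 for Myl12a, and the ratio of Myl12a to Myl12b went from 3.98 in 482N1 to 7.65 and 7.57. These ratios did not overlap between 482N1 and the other lines (exact permutation p = 0.1, the smallest possible). The coding sequences are 96.5% identical and 29.6% of Myl12a's transcript windows recur elsewhere, chiefly in Myl12b, so the assignment of reads within the pair is uncertain.

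The essential light chain genes Myl6 and Myl6b, neighbours on chromosome 10, were unequal. Myl6 had 840, 767 and 756 CPM in 482N1, 624, 571 and 476 CPM in B16F10-BrM, and 997, 979 and 939 CPM in E0771-BrM. E0771-BrM was above and B16F10-BrM below 482N1 in every library, with log2 fold changes of 0.30 ± 0.07 and -0.50 ± 0.08 (adjusted p = 0.000352 and 9.23e-08). In Myl6, 53.2% of transcript windows also occur in other genes, most of them in the predicted gene Gm5526. Myl6b had 10.1, 11.6 and 10.1 CPM in 482N1, 1.77, 1.76 and 1.51 CPM in B16F10-BrM, and 0.508, 1.08 and 0.623 CPM in E0771-BrM. Per kilobase it stood at 10.3 ± 0.819 CPM per kb in 482N1 against 1180 ± 68.8 for Myl6. All 482N1 libraries exceeded all others, and the log2 fold changes were -2.65 ± 0.27 in B16F10-BrM and -3.83 ± 0.32 in E0771-BrM (adjusted p = 1.32e-12 and 2.30e-15).

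Unconventional myosins, which carry cargo or link membranes to actin, were 10 genes. Of these, 6 were lower and 4 higher in B16F10-BrM than in 482N1 (39.9% and 38% of all genes). Myo7a, a myosin known from the inner ear and from the pigment epithelium of the eye, where it moves melanosomes, had 5.16, 3.97 and 2.54 CPM in 482N1, 60.8, 56.7 and 57.3 CPM in B16F10-BrM, and 3.43, 3.48 and 4.49 CPM in E0771-BrM. B16F10-BrM stood far above the other 2 lines, with log2 fold changes of 3.91 ± 0.16 over 482N1 and -3.94 ± 0.16 for E0771-BrM against it (adjusted p = 8.75e-27 and 9.47e-27). The melanocyte marker sum was also highest in B16F10-BrM. The part of these markers in the Myo7a difference was not tested. Myo18a and Myo6 were highest in 482N1. Myo18a, a myosin of Golgi and stress fibres, had 224 ± 23, 65 ± 6.42 and 59.1 ± 2.21 CPM in 482N1, B16F10-BrM and E0771-BrM (log2 fold changes against 482N1 -1.78 ± 0.09 and -1.92 ± 0.09, adjusted p = 4.53e-24 and 5.28e-25). Myo6, a motor that walks toward the minus end of filaments, had 266 ± 10.6, 119.5 ± 10.8 and 94.9 ± 7.32 CPM (-1.15 ± 0.08 and -1.49 ± 0.08, adjusted p = 2.84e-18 and 5.04e-22). The other 7 ranged in mean from 3.29 CPM (Myo19 in 482N1) to 255 CPM (Myo10, a filopodial motor, in B16F10-BrM). As a sum, unconventional myosins stood at 834 ± 26.4 CPM in 482N1, 638 ± 16.5 CPM in B16F10-BrM and 428 ± 6.70 CPM in E0771-BrM.

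Most genes of crosslinking and bundling proteins were lowest in B16F10-BrM. Of 9 genes, 8 were lower than in 482N1 with none higher (39.9% and 38% of all genes; median log2 fold change -1.94), and in E0771-BrM 8 were higher than in B16F10-BrM and 1 lower (37.2% and 36.5%; median 2.25). Their summed level was 1840 ± 105 CPM in 482N1, 706 ± 54.0 CPM in B16F10-BrM and 1730 ± 62.8 CPM in E0771-BrM. The simple epithelial, endothelial and smooth muscle and fibroblast marker sums were also lower in every B16F10-BrM library than in any 482N1 or E0771-BrM library. They were 0 to 0.233, 5.83 to 8.44 and 15.1 to 23.3 CPM in B16F10-BrM, 7290 to 7910, 90.4 to 104 and 68.2 to 110 CPM in 482N1, and 216 to 250, 35.3 to 37.4 and 51.7 to 60.1 CPM in E0771-BrM. These sums rest on 3 of 12, 2 of 8 and 3 of 15 listed genes, with Pdgfrb at 0 in 482N1. Single genes differed in direction: Egfl7, Col1a2 and Pdgfrb had more counts in B16F10-BrM than in 482N1. Col1a2 also had more there than in E0771-BrM. Against 482N1, the lower endothelial sum thus came from Flt1, and the lower smooth muscle and fibroblast sum from Smtn. The part of the marker sums in the result was not tested.

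Filamins are long flexible crosslinkers. Flna, the widely expressed form, had 348 ± 39.9, 203 ± 15.4 and 269.9 ± 14.9 CPM in 482N1, B16F10-BrM and E0771-BrM, and passed in every comparison, although its difference between E0771-BrM and 482N1 was lost with only library B of each line (adjusted p = 0.164; range over the alternatives 8.88e-07 to 0.164). Flnc, the filamin typical of muscle, was low everywhere: 0 counts in the 3 B16F10-BrM libraries, 2.06, 2.41 and 1.9 CPM in 482N1 and 13.6, 11.8 and 13 CPM in E0771-BrM. Against the floor of 3 counts over the group, the level exceeded that of B16F10-BrM by at least 18.6-fold in 482N1 and at least 111-fold in E0771-BrM (adjusted p = 5.77e-10 and 5.50e-20). None of the striated muscle markers listed was among the genes measured.

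The plastins, bundlers with tissue-specific forms, did not share an order of lines. Lcp1, or L-plastin, the form of white blood cells that many carcinomas also make, had 1.29, 1.2 and 1.14 CPM in 482N1, 0.833, 2.01 and 1.4 CPM in B16F10-BrM, and 322, 308 and 300 CPM in E0771-BrM. E0771-BrM exceeded the other lines by log2 fold changes of 8.001 ± 0.15 and 7.81 ± 0.14 (adjusted p = 2.78e-41 and 2.77e-41), and the other 2 lines overlapped. Of 14 leukocyte markers only Cd68 and Cd14 were measured, and they summed to 21.9 to 27.3 CPM in E0771-BrM, 24.7 to 34.2 CPM in 482N1 and 0.502 to 0.625 CPM in B16F10-BrM, where Cd14 was at 0. The markers differed in direction: Cd68 had 60 counts in 482N1 and 384 in E0771-BrM, and Cd14 had 652 and 218. Their part in the Lcp1 difference was not tested. Pls1, the plastin of microvilli in epithelia, had 45, 49.7 and 54.2 CPM in 482N1, 10.5, 12 and 13.6 CPM in E0771-BrM and no counts in B16F10-BrM. Relative to B16F10-BrM these are differences of at least 433-fold and at least 105-fold, and the level was lower in E0771-BrM than in 482N1 by a log2 fold change of -2.04 ± 0.14 (adjusted p = 3.40e-18). Pls3, or T-plastin, had 286, 260 and 262 CPM in 482N1, 43.1, 58.2 and 55.9 CPM in B16F10-BrM, and 213, 239 and 226 CPM in E0771-BrM. B16F10-BrM was the low line, with log2 fold changes of -2.37 ± 0.09 against 482N1 and 2.11 ± 0.09 for E0771-BrM against it (adjusted p = 2.65e-27 and 2.90e-25). The small difference between E0771-BrM and 482N1 (-0.25 ± 0.08, adjusted p = 0.00467) was lost with only library B of each line (0.464; range over the alternatives 0.00219 to 0.464). In CPM per kb, the leading plastin was Pls3 in 482N1 (83 ± 4.45) and B16F10-BrM (16.2 ± 2.51), while Lcp1 (80.7 ± 2.95) and Pls3 (69.7 ± 4.11) were close in E0771-BrM.

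Fascin and the alpha-actinins completed the group. Fscn1, the bundler of filopodia, had 171, 155 and 147 CPM in 482N1, 49.8, 59 and 51.8 CPM in B16F10-BrM, and 345, 341 and 310 CPM in E0771-BrM. The lines stood apart in every library, E0771-BrM over 482N1 over B16F10-BrM, with a log2 fold change of 2.64 ± 0.08 between E0771-BrM and B16F10-BrM and 1.07 ± 0.08 between E0771-BrM and 482N1 (adjusted p = 2.97e-31 and 2.34e-17). Fscn1 lies next to Actb on chromosome 5, with no coding gene between them in RefSeq GRCm38.p6, and both had the order E0771-BrM, 482N1, B16F10-BrM. Other genes of the 54, among them Msn, Zyx, Tpm2, Tpm3, Tpm4 and Myl6, had that order too. The neighbours Myl6 and Myl6b differed in order, so nothing is read from the position. Actn1 had 454, 395 and 455 CPM in 482N1, 120, 100 and 121 CPM in B16F10-BrM, and 300, 253 and 302 CPM in E0771-BrM. It was lowest in B16F10-BrM (-1.94 ± 0.08 on the log2 scale against 482N1, adjusted p = 5.92e-25), whereas its partner Actn4 was lowest on average in E0771-BrM, with 371 ± 15.2, 268 ± 49.4 and 214 ± 27.3 CPM in 482N1, B16F10-BrM and E0771-BrM. The log2 ratio of Actn1 to Actn4 was 0.23 ± 0.11, -1.23 ± 0.19 and 0.41 ± 0.06 in these lines. The Actn4 libraries of E0771-BrM and B16F10-BrM overlapped, and that call (adjusted p = 0.0149) was lost without library A of B16F10-BrM (0.0929) and with only the 2 lines compared (0.0673; range over the alternatives 0.000197 to 0.0929).

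The calponin family showed both directions. Tagln2, or transgelin-2, a filament-binding protein of many non-muscle cells, had 405, 364 and 397 CPM in 482N1, 41.3, 32.2 and 34.5 CPM in B16F10-BrM, and 223, 234 and 219 CPM in E0771-BrM. B16F10-BrM was lowest in every library, by log2 fold changes of -3.43 ± 0.09 against 482N1 and 2.64 ± 0.09 for E0771-BrM against it (adjusted p = 1.78e-35 and 1.09e-30). Cnn2 had the same order, with 167, 167 and 162 CPM in 482N1, 35.5, 29.1 and 30.5 CPM in B16F10-BrM, and 80.5, 71.9 and 76.7 CPM in E0771-BrM, and log2 fold changes of -2.38 ± 0.09 and 1.26 ± 0.09 (adjusted p = 2.44e-28 and 5.00e-17). Cnn3, the acidic calponin, was instead highest in B16F10-BrM, at 228 ± 11.8 CPM against 158 ± 13.6 CPM in 482N1 and 112 ± 6.8 CPM in E0771-BrM. Its log2 fold changes were 0.53 ± 0.08 for B16F10-BrM against 482N1 and -0.50 ± 0.08 for E0771-BrM against 482N1 (adjusted p = 3.55e-08 and 2.65e-07), and the latter call was lost with only library B of each line (0.0636; range over the alternatives 1.87e-08 to 0.0636). Within libraries the count ratio of Cnn2 to Cnn3 was lowest in B16F10-BrM at 0.139, against 0.682 in E0771-BrM and 1.05 in 482N1.

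Among the ERM genes, Ezr set 482N1 apart, and Msn and Rdx chiefly set E0771-BrM apart, in opposite directions. Ezr, ezrin, the linker of epithelial microvilli, had 1020, 862 and 886 CPM in 482N1, 134, 149 and 142 CPM in B16F10-BrM, and 109, 109 and 104 CPM in E0771-BrM. All 482N1 libraries lay above the rest, with log2 fold changes of -2.71 ± 0.08 in B16F10-BrM and -3.10 ± 0.08 in E0771-BrM (adjusted p = 1.20e-33 and 1.74e-35). The epithelial marker sum was also highest in 482N1, at 7290 to 7910 CPM, and its part in the Ezr difference was not tested. Msn, moesin, had 402, 433 and 405 CPM in 482N1, 376, 347 and 347 CPM in B16F10-BrM, and 840, 860 and 945 CPM in E0771-BrM. It was highest in E0771-BrM, by log2 fold changes of 1.09 ± 0.07 over 482N1 and 1.30 ± 0.07 over B16F10-BrM (adjusted p = 2.50e-19 and 3.94e-22). Rdx, radixin, was lowest in E0771-BrM, with 562 ± 56.6, 481 ± 8.88 and 306 ± 29.1 CPM in 482N1, B16F10-BrM and E0771-BrM, and its call between B16F10-BrM and 482N1 (adjusted p = 0.0059) was lost without library B of 482N1 (0.0786; range over the alternatives 0.000478 to 0.0786). In CPM per kb, Ezr was the leading ERM gene in 482N1 (291 ± 26.6), Rdx in B16F10-BrM (110.0 ± 2.03, with Msn at 92.8 ± 4.42) and Msn in E0771-BrM (230.0 ± 14.5). The log2 ratio of Ezr to Msn was 1.15 ± 0.17, -1.33 ± 0.14 and -3.04 ± 0.12 in 482N1, B16F10-BrM and E0771-BrM, with no overlap between lines.

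Of the adhesion proteins, Vcl, vinculin, which couples talin to actin, had 143, 123 and 129 CPM in 482N1, 28, 30.7 and 31.5 CPM in B16F10-BrM, and 38.7, 39.8 and 44.1 CPM in E0771-BrM. It was highest in 482N1 in every library, and the log2 fold changes were -2.13 ± 0.09 in B16F10-BrM and -1.69 ± 0.09 in E0771-BrM (adjusted p = 1.71e-25 and 8.00e-22). Zyx, zyxin, a LIM protein of focal adhesions and stress fibres, had 61, 46.7 and 51.6 CPM in 482N1, 30.2, 35.8 and 30.3 CPM in B16F10-BrM, and 89, 76.5 and 80.5 CPM in E0771-BrM. Its highest line was E0771-BrM, with log2 fold changes of 0.63 ± 0.10 over 482N1 and 1.36 ± 0.10 over B16F10-BrM (adjusted p = 2.29e-07 and 2.40e-16). B16F10-BrM was lowest for both genes.

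Ratios between partner genes counted in the same library do not depend on how libraries are scaled. Of 12 partner pairs chosen by family, each compared between 3 pairs of lines, 33 of 36 comparisons had no overlap between lines. Of all single genes, 78.7%, 78.5% and 75.5% did not overlap in the 3 comparisons of lines. Ratios of other gene pairs were not computed, so nothing about partner genes is read from that count. These 33 reached the exact permutation p of 0.1 (2-sided), the smallest that 3 against 3 allow, or 0.109 after Benjamini-Hochberg adjustment over the 36, so the design cannot carry any of them past 0.05. The 3 that overlapped were Arpc5 to Arpc5l and Rdx to Msn between B16F10-BrM and 482N1, and Myl12a to Myl12b between E0771-BrM and B16F10-BrM. The widest span was that of Tpm2 to Tpm1, with a log2 ratio of -1.76 ± 0.17 in E0771-BrM, -4.82 ± 0.11 in 482N1 and -12.58 ± 0.99 in B16F10-BrM, where the B16F10-BrM value rests on 5 reads of Tpm2. Next came Pls3 to Lcp1, with -0.46 ± 0.13, 7.80 ± 0.04 and 5.29 ± 0.42 in the same order of lines.

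**Figure D4:**
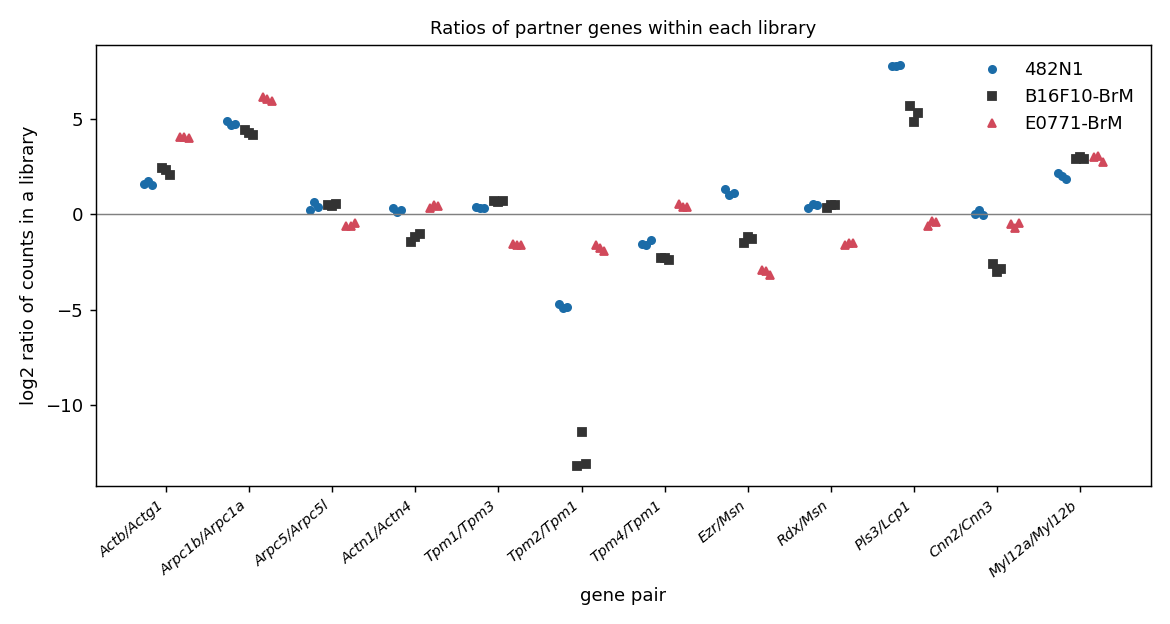
Log2 ratio of the counts of 2 partner genes within a library (y axis) for 12 pairs (x axis), 1 point per library, coloured by line. The 3 points of a line sit close together in most pairs. They spread more in B16F10-BrM for Tpm2 to Tpm1 (-13.18 to -11.44) and Pls3 to Lcp1 (4.86 to 5.69), which rest on few reads of Tpm2 and Lcp1. E0771-BrM lies apart from both other lines in Actb to Actg1 (3.99 to 4.07), Tpm4 to Tpm1 (0.38 to 0.54), Ezr to Msn (-3.18 to -2.95) and Pls3 to Lcp1 (-0.60 to -0.36).

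Many actin cytoskeleton genes are known targets of serum response factor, which binds the CArG box. RefSeq promoter windows of GRCm38.p6, from 250 bases before to 50 bases after an annotated start, were found for 47 of the 54 genes, 60 windows in all. The box was searched by its consensus, a CC, 6 bases of A or T, and a GG, which reads the same on both strands. It was found in 6 of the 60 windows (10%), against 1.63% of 32851 windows of all genes. The boxes, with up to 25 bases on each side, are shown because they are the stretches the search found. Of these 6 genes, 5 passed the test as lower in B16F10-BrM than in 482N1, as did 68.5% of the 54 genes and 39.9% of all genes, so nothing is read from that count. Capitals mark the box and sequences run in the direction of the gene:
Actg1 (chr11:120348551-120348610, minus strand): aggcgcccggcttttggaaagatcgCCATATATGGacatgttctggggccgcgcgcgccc
Arpc4 (chr6:113377863-113377897, plus strand): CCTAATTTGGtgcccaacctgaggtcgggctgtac
Cnn2 (chr10:79988519-79988578, plus strand): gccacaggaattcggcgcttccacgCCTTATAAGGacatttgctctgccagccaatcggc
Myl6 (chr10:128493025-128493084, minus strand): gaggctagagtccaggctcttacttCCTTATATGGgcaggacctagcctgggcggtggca
Myo1e (chr9:70207293-70207349, plus strand): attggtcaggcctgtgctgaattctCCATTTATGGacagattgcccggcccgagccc
Vcl (chr14:20929148-20929205, plus strand): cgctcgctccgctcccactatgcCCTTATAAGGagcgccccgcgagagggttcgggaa

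The boxes end 23 (Myo1e), 41 (Myl6), 47 (Cnn2), 81 (Actg1), 218 (Vcl) and 241 (Arpc4) bases before the start. In B16F10-BrM against 482N1, the log2 fold changes of Cnn2, Vcl, Myo1e, Actg1 and Myl6 were -2.38 ± 0.09, -2.13 ± 0.09, -1.35 ± 0.12, -0.98 ± 0.07 and -0.50 ± 0.08, and Arpc4 did not pass (-0.15 ± 0.09, adjusted p = 0.132). In E0771-BrM against 482N1 the same genes went both ways, with Cnn2, Vcl, Myo1e and Actg1 lower and Arpc4 and Myl6 higher. A match is a stretch of letters in the reference and not evidence of binding in these cells, and Srf itself was not analysed here. Actb, Actr5, Actr8, Arpc5l and Tpm3-rs7 are among the genes for which no promoter window was used.

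Other genes of the actin pathway showed the same lean in B16F10-BrM in part. Of 57 measured genes of actin assembly and turnover, 35 were lower and 15 higher in B16F10-BrM than in 482N1 (39.9% and 38% of all genes), with a median log2 fold change of -0.52. In E0771-BrM 22 were higher and 26 lower than in 482N1 (37.7% and 40.4% of all genes), and 28 higher and 19 lower than in B16F10-BrM (37.2% and 36.5%). Tmsb4x, which encodes the monomer-binding thymosin beta-4, stood at 1712 ± 83.9 CPM in 482N1, 74 ± 4.15 CPM in B16F10-BrM and 309 ± 43.4 CPM in E0771-BrM, and fell by log2 fold changes of -4.53 ± 0.09 and -2.47 ± 0.08 (adjusted p = 2.11e-37 and 4.79e-29). Enah, an elongation factor of the Ena/VASP family, had 106 ± 5.71 and 122 ± 8.57 CPM in 482N1 and B16F10-BrM and 2.82 ± 0.78 CPM in E0771-BrM (log2 fold change against 482N1 -5.24 ± 0.14, adjusted p = 2.03e-34). Cyfip2, a subunit of the WAVE regulatory complex that activates Arp2/3, was at 90.4 ± 2.76 CPM in B16F10-BrM and 23.6 ± 1.88 CPM in E0771-BrM, against 0.0423 ± 0.0732 CPM in 482N1. Tmod1, a tropomodulin that caps pointed ends, was at 58 ± 6.01 CPM in B16F10-BrM and near 1 CPM in the other lines (1.19 ± 0.79 and 1.32 ± 0.293).

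Of 46 measured genes of small GTPase signalling and contraction, 14 were higher and 23 lower in B16F10-BrM than in 482N1, where 38% and 39.9% of all genes were. In E0771-BrM 12 were higher and 25 lower than in 482N1 (37.7% and 40.4% of all genes), and 20 higher and 14 lower than in B16F10-BrM (37.2% and 36.5%). Pak1, a kinase downstream of Rac and Cdc42, had 148 ± 9.76 CPM in 482N1, 37.2 ± 0.858 CPM in E0771-BrM and no counts in B16F10-BrM, which gives differences of at least 1290-fold and at least 324-fold. Arhgef28, an exchange factor for RhoA, had 86 ± 5.18, 0.0347 ± 0.0601 and 8.54 ± 0.269 CPM in 482N1, B16F10-BrM and E0771-BrM. Net1, another RhoA exchange factor, was high in 482N1 alone, at 151 ± 6.37 CPM against 8.33 ± 0.55 and 9.7 ± 1. Arhgdib, an inhibitor of small GTPases best known from blood cells, and Dlc1, a GTPase-activating protein for RhoA, had the opposite pattern. Arhgdib stood at 0.578 ± 0.422 CPM in 482N1, 258 ± 13.8 CPM in B16F10-BrM and 492 ± 23.2 CPM in E0771-BrM, and Dlc1 at 1.31 ± 0.686, 29.9 ± 3.31 and 26.5 ± 4.19 CPM.

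Of 36 measured focal adhesion and stress fibre partners, 21 were lower and 13 higher in B16F10-BrM than in 482N1, where 39.9% and 38% of all genes were. In E0771-BrM 17 were lower and 13 higher than in 482N1 (40.4% and 37.7% of all genes), and 10 lower and 19 higher than in B16F10-BrM (36.5% and 37.2%). Palld, which encodes the stress fibre scaffold palladin, had 193 ± 16.6, 2.36 ± 0.529 and 102 ± 7.24 CPM in the 3 lines, a log2 fold change of -6.37 ± 0.14 in B16F10-BrM against 482N1 (adjusted p = 9.15e-39). Tns1, tensin 1, was at 64 ± 6.95, 0.0347 ± 0.0601 and 4.83 ± 1.37 CPM, and Tln2, talin 2, was lowest in 482N1, at 4.17 ± 1.52, 50.8 ± 1.45 and 48.7 ± 1.69 CPM. Pdlim1, an alpha-actinin partner, was high in E0771-BrM alone, with 309.6 ± 14.3 CPM against 56.5 ± 4.3 and 57.5 ± 2.96. Spectrin, ankyrin and membrane-link genes, 20 measured, split 6 higher and 13 lower in B16F10-BrM against 482N1 (38% and 39.9% of all genes). In E0771-BrM they split 8 higher and 9 lower against 482N1 (37.7% and 40.4%), and 9 higher and 8 lower against B16F10-BrM (37.2% and 36.5%). Marcks and Basp1, which bind actin and phospholipids at the membrane, fell to 0.335 ± 0.29 and 0.251 ± 0.222 CPM in E0771-BrM from 229 ± 8.86 and 663 ± 30 CPM in 482N1 (log2 fold changes -9.44 ± 0.18 and -11.39 ± 0.17, adjusted p = 3.49e-40 and 5.25e-45). Ank3, ankyrin-G, was at 86.4 ± 7.29, 0.0836 ± 0.145 and 136 ± 7.08 CPM, so that B16F10-BrM again was the low line, whereas Ank2, ankyrin-B, was at 0.0423 ± 0.0732 CPM in 482N1 and 14.8 ± 4.19 and 22.2 ± 1.98 CPM in the others.

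**Figure D5:**
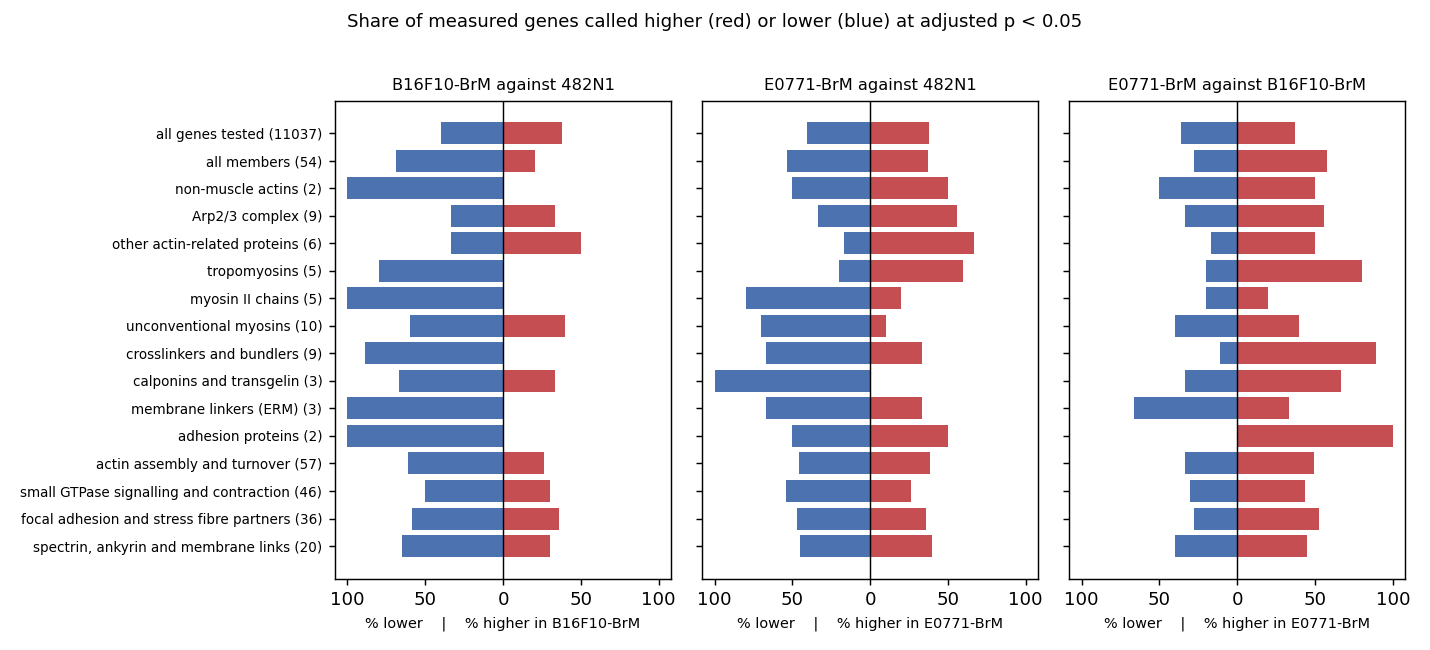
Percent of measured genes that passed the test as lower (blue, left of 0) or higher (red, right of 0) in the first-named line, for all genes tested, the 54 genes, their 10 roles and 4 lists of other actin pathway genes (y axis, with the number measured), in 3 comparisons. The top bar of each panel is the background: in the first panel it reaches 39.9% lower and 38% higher, against 37 and 11 of the 54 genes.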

How the data were processed

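Raw counts of reads for each gene symbol in 9 libraries of 3 cell lines were deposited by the authors. The build named is GRCm39 and the tools named are Cufflinks 2.2.1, SAMtools 0.1.19, Bowtie 1.0.0, TopHat2 2.0.10 and FastQC, per the submitters' processing notes. The counting tool, the annotation and the selection of the 11046 genes are not given in the sources used here. The tests used edgeR 4.0.16 (R 4.3.3). Its filterByExpr removed 9 genes and left 11037, TMM scaled the libraries, and 1 mean per line was estimated from all 9 with robust quasi-likelihood dispersions (common dispersion 0.0059). Lines were compared by 2-sided quasi-likelihood F tests with Benjamini-Hochberg adjustment over all genes tested within a comparison and a threshold of 0.05. CPM are counts relative to library size after TMM.

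Where a line held no counts of a gene, its 3 libraries together were set to 3 counts and the fold is written "at least". Such floors describe counting error alone, as reads lacked molecular identifiers and are not independent. Total counts of 7332390 to 9293348 per library set them. CPM per kb divides by the length of the principal GENCODE vM21 transcript of GRCm38, which was also used for coding sequences (aligned with Biopython 1.88) and for 50-base windows shared with other genes. The files' build is another, so the only coordinates given are those of RefSeq promoter windows of GRCm38.p6. SciPy 1.17.1 gave the exact permutation tests.

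The members and gene lists were chosen with earlier results of these data known. Named genes were, per comparison, the 12 members with the largest absolute log2 fold change among those that passed and did not overlap, a panel of family members, the Arp2/3 subunits, and up to 4 passing genes per pathway list and comparison. Actr1a, Actr5, Actr6, Actr8, Actr10, Myo1e, Myo10, Myo19 and Tpm3-rs7 fall outside this rule and were named after their values were seen. Some of the 54 genes are counted in all totals but not reported singly here. Alternatives were DESeq2 1.42.0, its size factors in edgeR, limma-voom (limma 3.58.1), a block for the library letter, a filter of 1 CPM in 3 libraries or none, removal of ribosomal RNA genes, only library B of 482N1 and E0771-BrM, glmTreat against a 2-fold change, only the 2 lines compared, and each library left out. Ranges of adjusted p over the alternatives leave out glmTreat, which tests another null. On simulated data for B16F10-BrM against 482N1 (11013 genes), 83.6% of genes changed by 1.5-fold, 100% of those changed by 2-fold and 100% of those changed by 4-fold were recovered, with 0.0462% of unchanged genes called. The simulation used independent libraries, 1 dispersion for all genes and 67, 67 and 66 changed genes. In the data 77.8% of genes passed in that comparison. These rates check the procedure and are not error rates of these data.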

Additional observations from a re-analysis of the deposited data

How the results depend on the processing

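Over 2916 values of single genes under the alternatives other than glmTreat, 2853 kept their direction and their side of the threshold, 40 lost a call, 9 gained one and 14 changed sign, each of the 14 in a difference that had not passed the test. Against a 2-fold change (glmTreat), 20, 15 and 20 of the 54 genes passed in B16F10-BrM against 482N1, E0771-BrM against 482N1 and E0771-BrM against B16F10-BrM, and 72, 51 and 57 genes of the actin pathway lists, because that test asks for a larger difference. With each library left out in turn, 47 to 49, 46 to 49 and 44 to 47 of the 54 genes passed, and 8233 to 8600, 8282 to 8615 and 7780 to 8191 of all genes. Where only library B of 482N1 and E0771-BrM is used, the spread is taken from the libraries of B16F10-BrM alone. Whether a call lost there reflects the libraries left out or their smaller number was not tested. Sign changes with only library B of 482N1 and E0771-BrM were 0.00202 for Arpc4 and -0.102 for Tpm1 in B16F10-BrM against 482N1, 0.0621 for Myo1c in E0771-BrM against 482N1, and -0.0655 for Myl12a and -0.186 for Myl12b in E0771-BrM against B16F10-BrM (log2). With limma-voom Myo7a changed sign in E0771-BrM against 482N1 (0.0132). Leaving out 1 library in turn gave ranges that cross 0 for Myo7a in that comparison (-0.261 to 0.216), for Tpm1 (-0.016 to 0.0915) and Lcp1 (-0.137 to 0.483) in B16F10-BrM against 482N1, and for Myl12b (-0.00612 to 0.269) and Actr5 (-0.0479 to 0.321) in E0771-BrM against B16F10-BrM. Within these ranges the sign changed at 0.216 without library A of 482N1 and 0.0346 and 0.0292 without libraries A and B of E0771-BrM for Myo7a, and at -0.00129 and -0.016 without libraries A and C of 482N1 for Tpm1. The cause was not tested. Calls of Actr6 in B16F10-BrM against 482N1 and of Tpm3-rs7 in E0771-BrM against B16F10-BrM were lost most often. Nothing in the labels says that the letters A, B and C pair libraries across lines. Deviations from the line means correlated weakly, at -0.00992 to 0.0898 for the same letter and -0.0752 to 0.037 for different letters. Values for the same letter leaned higher, and library B stood apart for Dct in 2 lines. Whether libraries of 1 letter were handled together was not tested. With the letter as a replicate block 48, 49 and 45 of the 54 genes passed, and 8595, 8623 and 8162 of all genes. Library depth limits Flnc, Lcp1, Myl6b, Myo19 and Tpm2, which had few counts in at least 1 line.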

Other observations

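Levels of genes that work at a fixed ratio in a protein complex were unequal per length of transcript. In 482N1 the Arp2/3 subunits Arpc2 and Arpc1b stood at 834 ± 27.8 and 444 ± 13.9 CPM per kb, and Actr2, Actr3 and Arpc5 at 30.9 ± 2.40, 49.5 ± 2.23 and 48.1 ± 2.03 CPM per kb. In E0771-BrM Arpc1b stood at 1210 CPM per kb and Actr3 at 27.8 CPM per kb. Of the transcript windows, 12.8% recur in other genes for Arpc1b, 0.216% for Arpc2, 0.726% for Actr2, 2.04% for Arpc5 and 49.8% for Actr3. The level of Actr3 is therefore uncertain to the extent that such reads were assigned elsewhere.

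Pfn1, which encodes profilin 1, a monomer-binding protein that most cells make in quantity, stood at 14.9, 10.3 and 11.3 CPM per kb in 482N1, B16F10-BrM and E0771-BrM. Cfl1, which encodes the severing protein cofilin 1, stood at 392, 298 and 868 CPM per kb in the same lines. No 50-base window of the Pfn1 transcript recurs in another gene (0%).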
